A study of Homo sapiens with 5 samples.

Results

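The collagen chain genes encode the alpha chains of the collagen family, and they were taken here as every gene whose symbol reads COL, a number, A and a number, which selected 44 of the 27189 genes listed in each library. HT1080 is a human fibrosarcoma cell line, that is, a line from a malignant tumour of connective tissue. The cells of all 5 libraries were embedded in a gel of 2 mg per ml soluble rat-tail type I collagen and kept there for 24 h. LD held 10 cells per cubic millimetre with no added cytokine, IL-6 and IL-8 held the same density with the recombinant cytokine of that name, RM held the same density with both in a ratio of 5 to 2, and HD held 50 cells per cubic millimetre with no added cytokine. Each condition was sequenced in 1 library from a single experiment, so no difference between conditions has a replicate check and no p-value is given. A cell-free collagen gel named in the study design is not analysed here.

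Collagens are extracellular proteins whose chains wind around each other into a triple helix. Fibrillar collagens such as types I, III and V build the banded fibres of connective tissue, type IV forms the sheet-like network of basement membranes, and type VI forms beaded filaments around cells. Many types need different chains in the same molecule. The chains are hydroxylated, folded, exported, trimmed and crosslinked by a dedicated set of enzymes, and cells grip collagen through integrins and discoidin domain receptors. The gel itself is protein from rat, whereas the values below are reads on human transcripts.

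The libraries differed in depth and in makeup. A ribosomal RNA entry, RNA5-8S5, took 76.9% to 79.6% of the reads of the low-density libraries and 51.5% of those of HD. Outside it, LD held 1645539 reads, HD 449661, and the cytokine libraries 1100967 (IL-6), 1120609 (IL-8) and 1434366 (RM). Olfactory receptor genes, which serve here as a reference for genes that fibrosarcoma cells should not express, had a read in 10 to 32 of 368 cases at low density and in 226 of 368 in HD. Of 9 mesenchymal markers, 8 stood at 10 transcripts per 1000000 (TPM) or above in every low-density library and 6 in HD, and their summed level was 6987 to 9402 TPM at low density and 1189 TPM in HD. The 4 epithelial markers that were listed, of 5, summed to at most 3.996 TPM at low density and to 183 TPM in HD. In HD GRHL2 had 48 reads, CDH1 34, EPCAM 3 and ESRP1 1, and GRHL2 alone stood at 144 TPM. The 4 blood markers summed to at most 1.30 TPM at low density and to 192 TPM in HD, where PTPRC had 36 reads, HBB 11, CD3E 3 and CD79A 0. The 3 endothelial markers summed to at most 1.08 TPM at low density and to 53.8 TPM in HD. The part that these reads play in the HD values of the chains was not tested, and in bulk RNA fewer cells of a type and less RNA per cell cannot be told apart. The label of the low-density libraries matched their markers, while HD held reads on marker genes of other cell types, and on olfactory receptor genes, next to the mesenchymal ones. Whether these reads come from transcripts of other cells was not tested.

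The 6 type IV chain genes lie in head-to-head pairs, in which the genes of a pair start close together and are read in opposite directions. The pairs are shown because their members behaved differently in these libraries: COL4A1 and COL4A2 were among the most abundant chains, COL4A3 and COL4A4 had no read at low density, and COL4A5 and COL4A6 had their largest counts in different libraries. The sequences are from RefSeq on GRCh38.p14, a later build than the GRCh37 (hg19) named in the submitters' processing notes, and run 5′ to 3′ on the plus strand towards the start of COL4A2, COL4A3 and COL4A5. Capitals mark CCAAT (or ATTGG on the other strand) and GGGCGG (or CCGCCC), and no match overlapped another. The stretch between COL4A1 and COL4A2, whose starts were 127 bases apart, is chr13:110307158-110307283, that before COL4A3 is chr2:227164374-227164623, and that before COL4A5 is chrX:108439588-108439837. The starts of COL4A3 and COL4A4 were 419 bases apart and those of COL4A5 and COL4A6 380. For these pairs only the 250 bases nearest COL4A3 and COL4A5 are shown, and the part next to COL4A4 and COL4A6 is left out.
COL4A1 to COL4A2: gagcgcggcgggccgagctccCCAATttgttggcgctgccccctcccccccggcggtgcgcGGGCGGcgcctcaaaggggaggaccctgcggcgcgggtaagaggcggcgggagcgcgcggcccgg
COL4A4 to COL4A3: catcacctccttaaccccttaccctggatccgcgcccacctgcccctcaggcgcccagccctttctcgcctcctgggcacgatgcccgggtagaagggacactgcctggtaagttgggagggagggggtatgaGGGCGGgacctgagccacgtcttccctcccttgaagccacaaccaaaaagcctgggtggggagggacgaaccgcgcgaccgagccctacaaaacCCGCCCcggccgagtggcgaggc
COL4A6 to COL4A5: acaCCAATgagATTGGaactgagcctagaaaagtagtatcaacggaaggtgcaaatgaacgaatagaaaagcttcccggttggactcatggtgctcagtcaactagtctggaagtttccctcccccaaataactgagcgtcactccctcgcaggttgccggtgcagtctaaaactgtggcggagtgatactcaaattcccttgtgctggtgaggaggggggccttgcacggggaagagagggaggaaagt

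The 126 bases between COL4A1 and COL4A2 held 1 CCAAT and 1 GGGCGG, and 20 CpG dinucleotides. That was 15.9 CpG per 100 bases, against a median of 4.76 over the same length of 35116 promoter windows, of which 21.1% held CCAAT and 34.6% held GGGCGG. The 250 bases before COL4A3 held 2 GGGCGG, no CCAAT and 6.80 CpG per 100 bases, and the 250 before COL4A5 held 2 CCAAT, no GGGCGG and 3.20 CpG per 100 bases. The median over all windows of that length was 4.40 CpG per 100 bases, with CCAAT in 32.0% and GGGCGG in 42.6%. None of the 3 stretches held TATAAA on either strand, which 5.87% of the shorter and 10.7% of the longer windows did. The stretch of the expressed pair thus had the densest CpG of the 3, and it alone spanned the whole distance between the starts. Promoter windows were at hand for 32 of the 44 chains, in 44 windows of 300 bases, and the CpG content of expressed and silent chains overlapped over them. The median was 36 CpG (range 4 to 45) for 7 chains with at least 10 TPM at low density and 28 (1 to 45) for 9 chains without a read there. Over all 35116 windows it was 14. The neighbours COL4A1 and COL4A2 both count among the 7, and COL4A3 and COL4A4 among the 9.

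Most of the collagen transcripts in the gel came from few genes. At low density 10 chains reached 10 TPM in at least 1 library, and these 10 held 94.6% of the chain TPM in LD, 95.9% with IL-6, 97.9% with IL-8 and 98.3% in RM. They were the type IV chains COL4A1 and COL4A2, the type VI chains COL6A1, COL6A2 and COL6A3, the fibrillar chains COL1A1, COL1A2, COL5A1 and COL27A1, and the transmembrane chain COL13A1. All 10 had reads in every low-density library. A further 15 chains had no read in any of the 4, and 19 lay between, with at most 37 reads and 7.55 TPM. The 44 chains together took 395 TPM in LD, 487 with IL-6, 454 with IL-8, 486 in RM and 578 in HD, which is 0.0395% to 0.0578% of the TPM of a library. Counted as reads, they took 3197 in LD, 2712 with IL-6, 2506 with IL-8, 2916 in RM and 534 in HD. Per 1000000 reads outside RNA5-8S5 (RPM) this was 1943, 2463, 2236, 2033 and 1188. HD was thus the highest of the 5 libraries by TPM and the lowest by share of reads. The TPM total includes RNA5-8S5. With it left out of the sum, the chains took 0.0551% in LD, 0.0697% with IL-6, 0.0651% with IL-8, 0.0683% in RM and 0.0676% in HD. HD was then below IL-6 and RM.

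**Figure D1:**
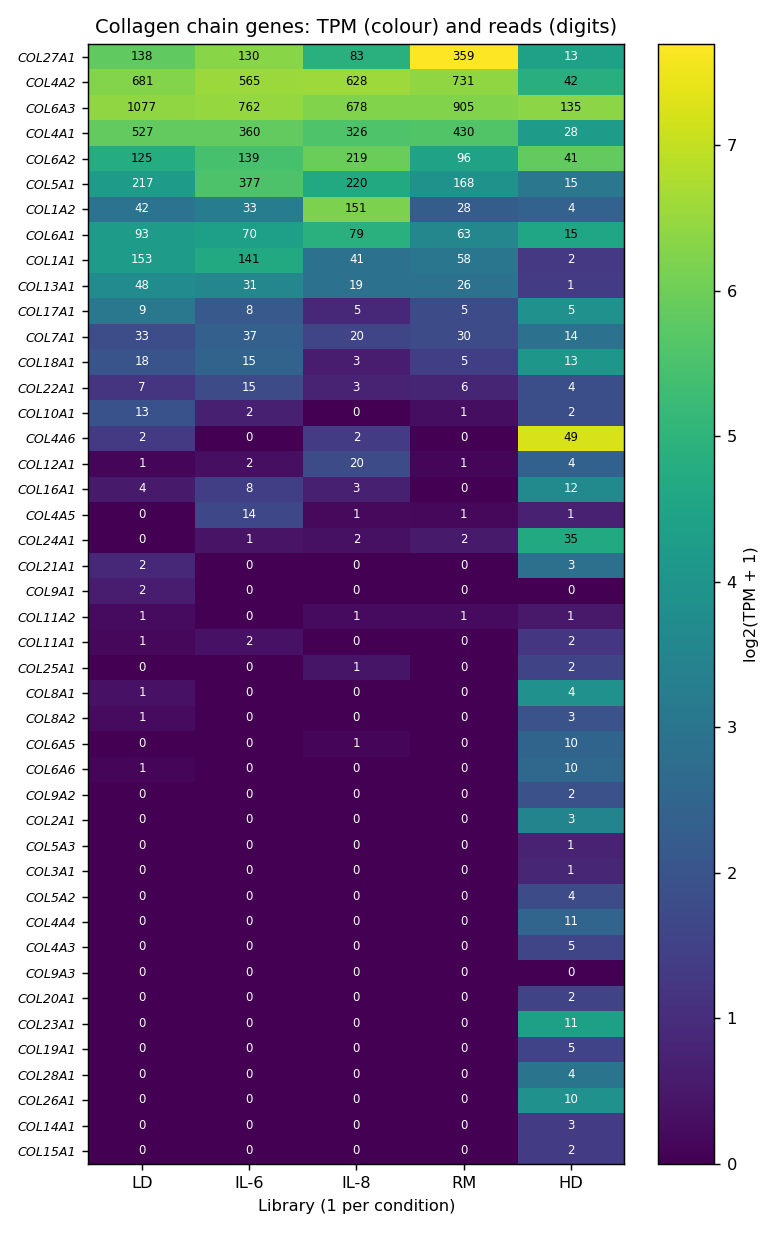
Colour gives log2(TPM + 1) and digits give the reads of each of the 44 collagen chain genes (rows) in the 5 libraries (columns, 1 per condition). The 10 chains with at least 10 TPM in a low-density library form the upper block, the 15 lowest rows have no read in LD, IL-6, IL-8 or RM, and 14 of those 15 have reads in HD.

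Many more chains were seen in HD than at low density. At least 1 read fell on 25 chains in LD, 20 with IL-6, 22 with IL-8 and 19 in RM, against 42 in HD. At least 1 TPM was reached by 16, 16, 13 and 13 chains in the same order, and by 38 in HD. Set against the olfactory receptor genes of the same library, the order was the opposite. The number of chains with at least 3 reads and above the 95th percentile of the receptor genes was 15 in LD, 16 with IL-6, 16 with IL-8 and 14 in RM, where that percentile lay between 0 and 1.19 TPM. It was 3 in HD, where the percentile lay at 35.3 TPM, and the 3 were COL6A3, COL6A2 and COL4A6.

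**Figure D2:**
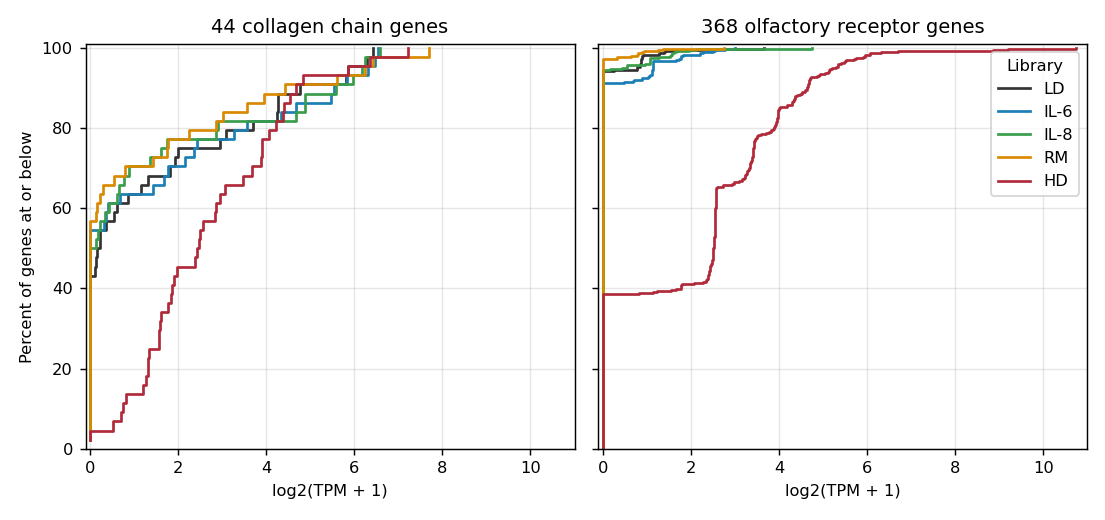
Percent of genes at or below each level of log2(TPM + 1), for the 44 collagen chain genes (left) and 368 olfactory receptor genes (right), with a line for each of the 5 libraries. At low density over 90% of the olfactory receptor genes lie at 0, while in HD 226 of 368 have a read and both sets are shifted to the right.

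COL4A1, COL4A2 and COL6A3 differed little in TPM between the low-density libraries, and none of them was called there. COL4A1 and COL4A2 together form the common basement membrane collagen. COL4A2 stood at 76.6 TPM (681 reads) in LD, 92.5 TPM (565) with IL-6, 94.8 TPM (628) with IL-8, 84.9 TPM (731) in RM and 27.5 TPM (42) in HD. COL4A1 stood at 56.8 TPM (527 reads), 56.4 TPM (360), 47.2 TPM (326), 47.9 TPM (430) and 17.8 TPM (28) in the same order. The 4 low-density TPM values of each gene lay close together and HD lay below them all. By share of reads, the interval of COL4A2 in LD (384 to 446 RPM) overlapped none of those in IL-6 (473 to 557), IL-8 (518 to 606) and RM (474 to 548). Those of COL4A1 and COL6A3 in LD overlapped those of the cytokine libraries. Under median-ratio normalisation COL4A2 was higher than LD by 0.87 log2 units in RM and 0.75 in IL-8. For COL4A1 it was 0.48 and 0.18, and for COL6A3 0.54 and 0.26. COL4A2 ranked above 94.9% to 95.9% of all genes in the low-density libraries and above 80.1% in HD.

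The other type IV chains were rare or silent at low density. COL4A5 and COL4A6, which join in the basement membranes of kidney, skin and smooth muscle, were not seen together in any number. COL4A5 had 14 reads in IL-6 (2.21 TPM), no read in LD and 1 read in each of the other libraries. COL4A6 had 2 reads in LD and in IL-8, none in IL-6 and RM, and 49 reads in HD. Its 148 TPM in HD was the highest TPM of any chain, while by reads COL6A3 was higher there, with 135. COL4A3 and COL4A4, of the glomerular and lung basement membrane, had no read in the 4 low-density libraries, and 5 and 11 reads in HD. Each of the 3 head-to-head pairs therefore gave a different picture: both members expressed, both without reads at low density, and members with few reads whose largest counts came from different libraries, COL4A5 in IL-6 and COL4A6 in HD.

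Type VI collagen is assembled from COL6A1, COL6A2 and a longer chain that is most often COL6A3. COL6A3 had the most reads of any chain in every library, with 1077 in LD, 762 with IL-6, 678 with IL-8, 905 in RM and 135 in HD. Its level was 85.4, 87.7, 74.9, 75.1 and 81.5 TPM in that order. With RNA5-8S5 in the TPM sum, HD thus lay within the range of the other libraries. With RNA5-8S5 left out of the sum, HD was the lowest, at -0.32 against LD on the log2(TPM + 1) scale. IL-6 then stood at 0.07 against LD, IL-8 at -0.15 and RM at -0.17. As a share of reads outside RNA5-8S5, COL6A3 was at 655 RPM in LD and 300.2 RPM in HD, a value 2.18-fold lower. The 95% intervals of 617 to 695 and 254 to 355 did not overlap. COL6A1 lay at 18.2, 19.2, 28.4, 10.9 and 22.4 TPM, on 93, 70, 79, 63 and 15 reads. COL6A2 lay at 26.2, 43.2, 61.8, 20.6 and 56.9 TPM, on 125, 139, 219, 96 and 41 reads. RM thus held the lowest TPM of both, but this depended on the scale. Under median-ratio normalisation of the TPM, the difference of RM from LD on the log2(TPM + 1) scale went from -0.34 to 0.37 for COL6A2 and from -0.69 to -0.01 for COL6A1. By share of reads COL6A1 was lowest in HD, at 33.4 RPM against 43.9 RPM in RM. The chains that can replace COL6A3 were nearly absent at low density, where COL6A5 had 1 read in IL-8 and COL6A6 1 read in LD, and each had 10 reads in HD.

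**Figure D3:**
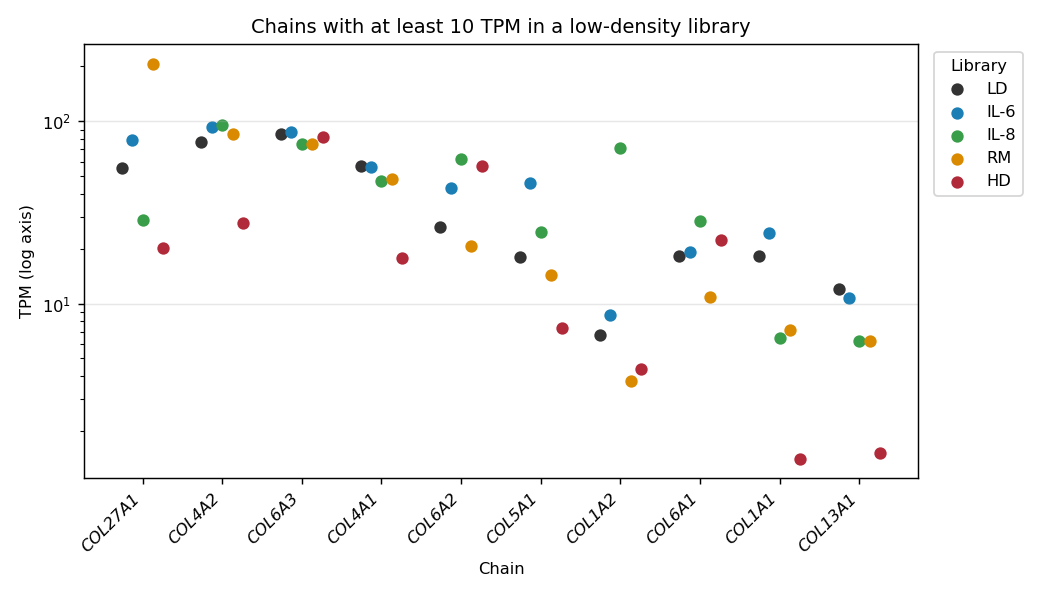
TPM on a log axis of the 10 chains that reached 10 TPM in at least 1 low-density library, with a point for each of the 5 libraries (1 per condition, no error bars). COL6A3, COL4A1 and COL4A2 vary little at low density, whereas COL27A1 is highest in RM, COL1A2 in IL-8 and COL5A1 in IL-6.

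Among the fibrillar chains the libraries differed most. COL5A1, a chain of type V collagen that is built into type I fibres and limits their width, had 217 reads in LD, 377 with IL-6, 220 with IL-8, 168 in RM and 15 in HD. This gave levels of 18.0, 45.6, 24.5, 14.4 and 7.36 TPM. IL-6 stood apart from the other libraries, at 2.53-fold the level of LD. The usual partner COL5A2 had no read in any low-density library and 4 in HD, and COL5A3 had 1 read in HD alone. COL5A1 was thus the only type V chain with reads at low density. COL2A1, the main collagen of cartilage, and COL3A1, which accompanies type I in skin and vessels, likewise had no read at low density, and 3 and 1 reads in HD.

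COL27A1, a fibrillar chain known from cartilage, had 138 reads in LD, 130 with IL-6, 83 with IL-8, 359 in RM and 13 in HD. This gave 55.2, 78.9, 28.7, 206 and 20.1 TPM, and in RM it was the highest of all chains by TPM. By reads, which are not corrected for length, it lay in RM below COL6A3 (905), COL4A2 (731) and COL4A1 (430). RM lay above IL-6 and IL-8 as well as above LD: its 250.3 RPM had an interval of 226 to 277, against 99.4 to 140.2 in IL-6 and 59.8 to 91.8 in IL-8. SOX9, a regulator of cartilage genes, stood at 51.4 TPM in LD and 62.9 in RM, while ACAN and MATN3, cartilage matrix genes, had at most 2 reads in any low-density library. The level of COL27A1 also carried a difference between the units. Its reads per TPM, relative to LD and over all genes with at least 20 reads in every library, were 0.738 in RM and 1.58 with IL-8, outside the 5th to 95th percentile of such genes (0.764 to 1.25 in RM and 0.813 to 1.22 in IL-8). The ratio of RM to LD was therefore 3.74 by TPM and 2.98 by share of reads, and that of LD to IL-8 was 1.92 by TPM and 1.13 by share of reads, where the intervals of LD and IL-8 overlapped.

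Type I collagen is built from COL1A1 and COL1A2 and is the protein of the gel itself. COL1A1 had 153 reads in LD, 141 with IL-6, 41 with IL-8, 58 in RM and 2 in HD, and levels of 18.2, 24.4, 6.51, 7.13 and 1.41 TPM. COL1A2 had 42 reads in LD, 33 with IL-6, 151 with IL-8, 28 in RM and 4 in HD, and levels of 6.68, 8.65, 70.9, 3.78 and 4.39 TPM. In IL-8 COL1A1 was lower and COL1A2 higher than in LD. COL1A1 supplied 78.5% of the reads of the pair in LD (72.2 to 83.7 by the 95% Wilson method), 67.4% in RM (57.0 to 76.4) and 81.0% under IL-6 (74.6 to 86.2), but 21.4% with IL-8 (16.2 to 27.7). The 6 reads of HD could not place the share there. By TPM the ratio of COL1A1 to COL1A2 was 2.73 in LD, 2.83 with IL-6 and 1.89 in RM, and in IL-8 COL1A2 was 10.9-fold the higher. The reads per TPM of COL1A2 in IL-8 were 0.463 of those in LD, below the 5th percentile of 0.813, so that IL-8 was 10.6-fold LD by TPM and 5.28-fold by share of reads.

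**Figure D4:**
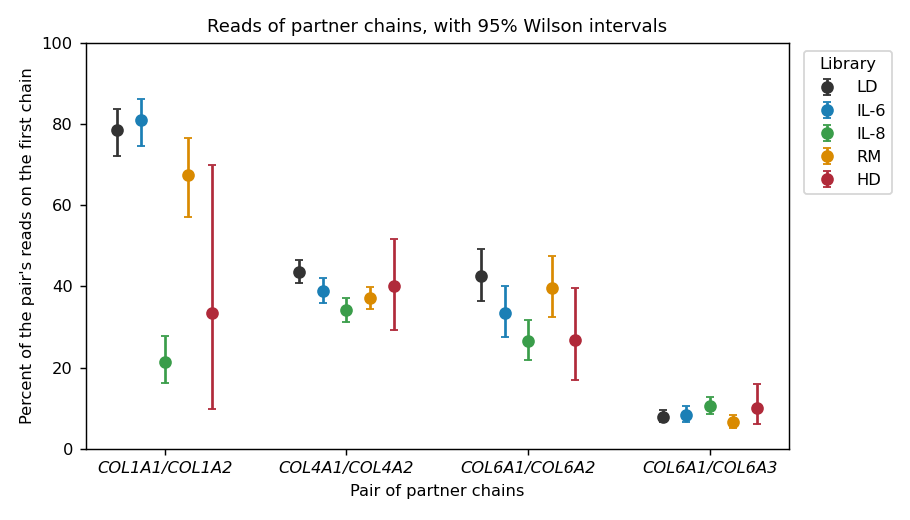
Share of the reads of a pair that fall on its first chain (percent), for 4 pairs of chains that assemble together, in the 5 libraries, with 95% Wilson intervals that cover counting error only. COL1A1 takes 67.4% to 81.0% of the type I reads in LD, IL-6 and RM and 21.4% with IL-8, while the shares of the type IV and type VI pairs span narrower ranges.

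The partners of type IV and type VI kept more even proportions. COL4A1 took 43.6% of the reads of its pair with COL4A2 in LD (40.9 to 46.4), 38.9% with IL-6, 34.2% with IL-8 (31.2 to 37.2), 37.0% in RM and 40.0% in HD. The interval of LD did not overlap those of IL-8 and RM. COL6A1 took 42.7% of its reads with COL6A2 in LD (36.3 to 49.3) and 26.5% with IL-8 (21.8 to 31.8), and 33.5%, 39.6% and 26.8% in IL-6, RM and HD. Against COL6A3, which is much longer, COL6A1 took 6.51% to 10.4% of the reads, and by TPM it lay at 0.145 to 0.379 of COL6A3. The pairs of types V, VIII, IX and XI never had 10 reads on both members.

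The remaining families were thin at low density. COL13A1, a transmembrane collagen of cell adhesion sites, had 48 reads in LD, 31 with IL-6, 19 with IL-8, 26 in RM and 1 in HD, or 12.0, 10.8, 6.27, 6.24 and 1.51 TPM. COL17A1, the transmembrane collagen of hemidesmosomes, and COL7A1, which forms the anchoring fibrils of skin, had reads in every library. COL7A1 had 20 to 37 reads and 2.05 to 4.12 TPM at low density, and 14 reads and 6.32 TPM in HD. COL18A1, the source of endostatin, had 18 and 15 reads in LD and IL-6 but 3 and 5 in IL-8 and RM. COL10A1, a network collagen of hypertrophic cartilage, had 13 reads in LD, 2 with IL-6, none with IL-8, 1 in RM and 2 in HD. COL12A1, which sits on the surface of type I fibrils, had 20 reads in IL-8 and 1 or 2 in LD, IL-6 and RM. By family, the 11 fibrillar chains held 24.9% of the chain TPM in LD, 12.7% in HD, 32.5% with IL-6, 28.9% with IL-8 and 47.9% in RM, where 206 TPM of their 232 were COL27A1. Counted as reads their share was 17.3% in LD and 21.1% in RM, with 25.2% in IL-6 the highest. The 6 type IV chains held 27.4% to 34.7% of the chain TPM over the 5 libraries and the 5 type VI chains 22.0% to 36.4%, lowest in RM and highest in IL-8. The 10 fibril-associated chains, to which COL12A1 belongs, held at most 0.899% in any low-density library.

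The 15 chains without a read at low density were COL2A1, COL3A1, COL4A3, COL4A4, COL5A2, COL5A3, COL9A2, COL9A3, COL14A1, COL15A1, COL19A1, COL20A1, COL23A1, COL26A1 and COL28A1. Their absence is limited by depth: no read among the 5301481 of the 4 libraries outside RNA5-8S5 allows up to 0.566 RPM. For a single library the limit of 3 reads was 1.82 RPM in LD, 2.09 in RM, 2.68 and 2.73 with IL-8 and IL-6, and 6.67 in HD. The reads were amplified before sequencing and are not independent molecules, so these limits, and all intervals given here, cover counting error only. In HD 14 of the 15 had 1 to 11 reads, with a median of 2.05 TPM over the 15 and 4 of them above the 4.70 TPM that was the median of the olfactory receptor genes there.

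A chain was called higher or lower than LD when log2(TPM + 1) differed by at least 1 and the 95% Wilson intervals of its share of the reads outside RNA5-8S5 did not overlap. The 1 added to the TPM makes the difference smaller than the ratio for low genes. All 4 comparisons share the LD library, so a value that is off in LD enters each of them. Of the 44 chains, 39 reached 1 TPM in at least 1 library and could be called, 20 of them through HD alone, and the other 5 (COL3A1, COL5A3, COL9A1, COL9A3 and COL11A2) could not. The cytokine libraries held few calls, and the share of chains called was near that of all genes or rested on 1 to 3 chains. Genes that passed the filter through HD alone, 6896 of the 21162, could not differ by 1 log2 unit between low-density libraries. The same holds for the 20 chains. The shares called in the cytokine libraries are therefore lower than they would be among genes that could be called. The median difference over the 39 chains was 0 in IL-6 and IL-8 and -0.06 in RM, and over all 21162 genes it was 0 in each. That 0 includes genes without reads in either library, and among the 14266 genes that reached 1 TPM at low density it was -0.46 in RM, -0.31 with IL-8 and 0.02 with IL-6. Median-ratio normalisation placed IL-8 higher against LD by 0.45 and RM by 0.73 on the log2 scale. Of all calls over all genes, 35.4% in IL-8 and 24.7% in RM were in the higher direction, and 52.4% and 47.2% under that normalisation.

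In IL-6 2 chains were called higher, COL5A1 and COL4A5, or 5.13% of the 39, against 4.24% of all genes. None was called lower, against 3.27% of all genes. COL5A1 was higher by 1.29 on the log2(TPM + 1) scale, from 132 to 342 RPM (intervals 116 to 151 and 310 to 379). COL4A5 rested on 14 reads against 0, with intervals of 7.58 to 21.3 and 0 to 2.33 RPM. With a threshold of 10 TPM, COL5A1 remained and COL4A5 did not enter.

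In IL-8 3 chains were called higher, COL1A2, COL6A2 and COL12A1, or 7.69% against 4.8% of all genes. COL1A2 was higher by 3.22 on the log2 scale, from 25.5 to 135 RPM, and COL6A2 by 1.21, from 76.0 to 195 RPM. COL12A1 rested on 20 reads against 1. COL1A1 and COL10A1 were called lower, or 5.13% against 8.76% of all genes. COL1A1 fell by 1.36 on the log2 scale, from 93.0 to 36.6 RPM (intervals 79.4 to 109 and 27.0 to 49.6), and by 0.95 when the TPM were normalised by median ratios, which ended the call. COL10A1 rested on 13 reads in LD against 0.

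In RM 1 chain was called higher, COL27A1, or 2.56% against 4.3% of all genes, with a difference of 1.88 on the log2 scale. The chains called lower were again COL1A1 and COL10A1, or 5.13% against 13.2% of all genes. COL1A1 fell by 1.24 on the log2 scale, from 93.0 to 40.4 RPM, and by 0.58 under median-ratio normalisation, which ended this call as well. COL1A2, higher in IL-8, was at 3.78 TPM in RM against 6.68 in LD and was not called. COL5A1, higher in IL-6, was at 14.4 TPM in RM against 18.0 in LD and was not called either.

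**Figure D5:**
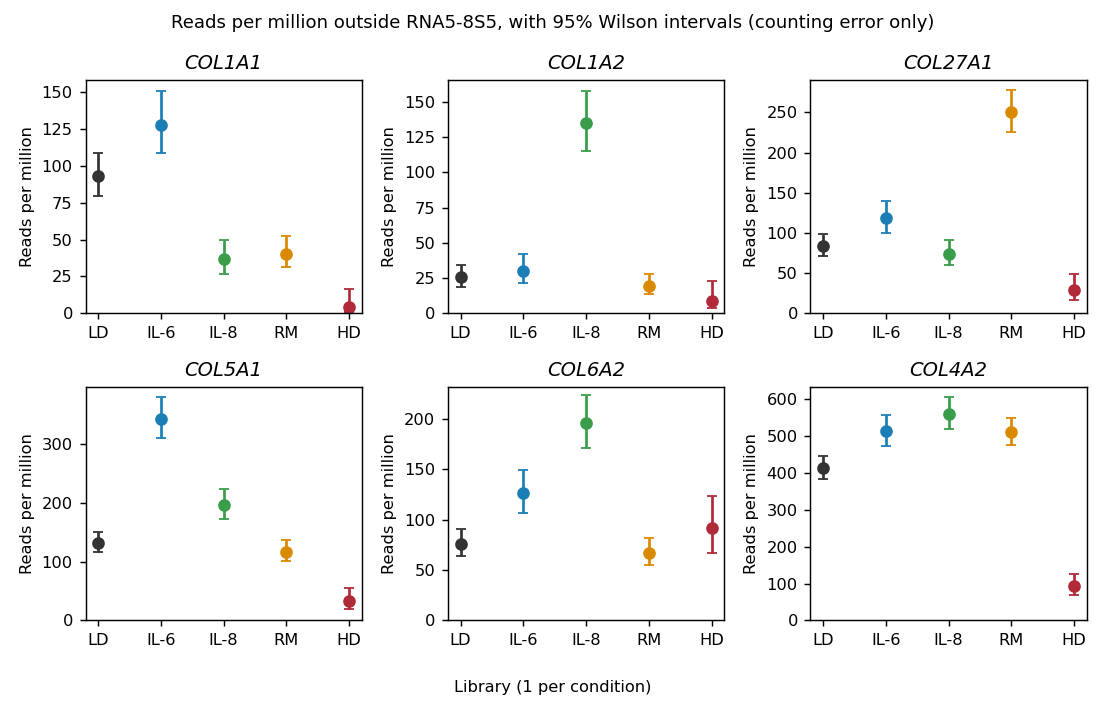
Reads per 1000000 reads outside RNA5-8S5 (RPM) with 95% Wilson intervals (counting error only) for COL1A1, COL1A2, COL27A1, COL5A1, COL6A2 and COL4A2 in the 5 libraries, on a linear axis from 0. COL1A2 stands apart in IL-8, COL27A1 in RM and COL5A1 in IL-6, and COL1A1 is lower in IL-8, RM and HD than in LD and IL-6.

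In HD 14 chains were called higher than LD, or 35.9% against 37.4% of all genes, and 6 were called lower, or 15.4% against 13.8% of all genes. Both shares lay close to those of all genes, but both sides include genes that passed the filter through HD alone and could not be lower. Of the 19 chains that reached 1 TPM at low density, 6 were called lower and 3 higher. The genes called lower were 2914, all among the 14266 that reached 1 TPM at low density. How many of those 14266 were called higher was not counted, so the 3 higher chains have no matching share beside them. Of the 14 higher chains, 11 had passed the filter through HD alone and so could only be higher, and the other 3 were COL4A6, COL12A1 and COL16A1. The 6 lower chains were COL1A1, COL13A1, COL4A1, COL4A2, COL27A1 and COL5A1. The median over all genes was itself 1.87 log2 units higher in HD than in LD, and 1.45 under median-ratio normalisation, but that median covers 6896 genes that passed the filter through HD alone. Over the 7916 genes that reached 1 TPM in each of the 5 libraries it was -0.30. The median over the 39 chains was 1.56, and it was -1.19 over those chains that reached 1 TPM in each of the 5.

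All 6 were among the 10 chains that reached 10 TPM at low density. COL1A1 fell by 2.99 on the log2 scale, COL13A1 by 2.38, COL4A1 by 1.62, COL4A2 by 1.45, COL27A1 by 1.41 and COL5A1 by 1.19. COL4A1 stood at 320 RPM in LD and at 62.3 RPM in HD, and the intervals did not overlap. The 8 chains with the highest TPM in HD were COL4A6, COL6A3, COL6A2, COL4A2, COL24A1, COL6A1, COL27A1 and COL23A1, which held 69.4% of the chain TPM. Of these, COL24A1, a fibrillar chain, had 35 reads and 24.7 TPM in HD against at most 2 reads elsewhere. COL23A1, a transmembrane chain, had 11 reads and 19.9 TPM there against none elsewhere. Both lay below the 95th percentile of the olfactory receptor genes of HD. COL4A6 lay above it and above 99.2% of those genes, the highest of which reached 1710 TPM.

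About as many genes of collagen synthesis were abundant in each low-density library. Of 30 genes listed for this purpose 29 were found, and 15 stood at 10 TPM or above in LD, IL-8 and RM and 18 in IL-6. LOXL4 had no read at low density and TLL1 1 read, in IL-6. The number above the olfactory receptor level was 22 to 25 at low density and 4 in HD. The most abundant in LD were PPIB, a prolyl isomerase of the endoplasmic reticulum, at 874 TPM, P4HB, a subunit of prolyl 4-hydroxylase, at 600.2 TPM, and PLOD3, a lysyl hydroxylase, at 147 TPM. PPIB ranged from 824 to 1123 TPM over all 5 libraries, while P4HB ranged from 444 to 636 TPM at low density and stood at 48.8 TPM in HD.

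In IL-6 3 synthesis genes were called higher, or 10.3% of the 29 against 4.24% of all genes, and 1 lower, or 3.45% against 3.27%. P4HA3, a catalytic subunit of prolyl 4-hydroxylase, went from 5 reads in LD to 30, CTAGE5, of the export of large collagens, from 10 to 38, and BMP1, which trims procollagen, from 133 to 167 (24.97 to 62.8 TPM). PCOLCE, which enhances that trimming, went from 60 reads to 18. In IL-8 P4HA3 was called higher again with 24 reads and PCOLCE with 95, or 6.90% against 4.8% of all genes. Called lower were 3 genes, or 10.3% against 8.76%, as PLOD1 went from 414 reads to 80, MIA3, an export receptor, from 54 to 14, and LOXL3, a crosslinking oxidase, from 114 to 21. Median-ratio normalisation ended the call of MIA3, and the use of RPM that of BMP1. PCOLCE was thus called in opposite directions in IL-6 and IL-8.

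In RM 1 synthesis gene was called higher, or 3.45% against 4.3% of all genes, and 7 lower, or 24.1% against 13.2%, with a median of -0.43 over the 29. The shares of all genes include the 6896 that passed the filter through HD alone and could not be called in RM. Of the synthesis list only TLL1 and LOXL4 stayed under 1 TPM at low density, so the shares are not on equal terms. This limit also holds for the lists in IL-6 and IL-8 and for the receptors in RM. Over the 14266 genes that reached 1 TPM at low density the median in RM was -0.46. Under median-ratio normalisation 2 were higher and 4 lower and the median was 0. The higher gene was ADAMTS14, a propeptidase of fibrillar procollagens, with 114 reads in RM against 1 read in LD, 1 with IL-6 and 1 with IL-8. The lower genes were the hydroxylases PLOD1 (193 reads against 414 in LD) and PLOD2 (13 against 48), CRTAP (214 against 470), COLGALT2 (0 against 9), MIA3 (9 against 54), PCOLCE (4 against 60) and PCOLCE2 (0 against 14). The calls of PLOD1, PLOD2 and CRTAP were lost under median-ratio normalisation, where the differences were -0.31, -0.93 and -0.32 on the log2 scale, and those of PLOD1 and CRTAP also by RPM. In HD 7 genes of the list were called higher, or 24.1% against 37.4% of all genes, and 8 lower, or 27.6% against 13.8%. The higher ones were P4HA3, LEPRE1, COLGALT2, ADAMTS2, ADAMTS3, ADAMTS14 and LOXL4, with LEPRE1 at 132 reads against 63 in LD. The lower ones were P4HA2, P4HB, PLOD1, PLOD3, FKBP10, BMP1, PCOLCE and LOXL2, so the hydroxylation genes went in both directions. The shares of all genes in HD, here and for the receptors, likewise include genes that passed the filter through HD alone and could not be lower.

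Of the 10 collagen receptors, none was called in IL-6 or IL-8 and 3 were called in RM. The most abundant in LD were MRC2, an endocytic collagen receptor, at 92.5 TPM, the integrin subunit ITGA2 at 82.8 TPM and its partner ITGB1 at 63.9 TPM. ITGA2 lay between 76.1 and 85.5 TPM and ITGB1 between 59.7 and 65.8 TPM in the 4 low-density libraries. In RM ITGA10 was called higher (17.0 to 43.5 TPM, 65 to 116 reads), or 1 of 10 against 4.3% of all genes, and the kinases DDR1 (152 to 67 reads) and DDR2 (140 to 65 reads) were called lower, or 2 of 10 against 13.2%. The differences of DDR1 and DDR2 were -1.12 and -1.005 on the log2 scale, close to the threshold. They were -0.43 and -0.31 under median-ratio normalisation and -0.97 and -0.89 by RPM, and neither gene was called in either case. In HD 4 of 10 receptors were called higher, against 37.4% of all genes, and 5 lower, against 13.8%. The higher ones were the integrin subunits ITGA1 (44 reads against 4 in LD) and ITGA11 (13 against 7), GP6 of platelets and LAIR1 of leukocytes. GP6 and LAIR1 had 57 and 58 reads in HD against at most 6 at low density.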

How the data were processed

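The study embedded HT1080 cells in type I collagen gels and sequenced 5 libraries, 1 per condition, by poly-A primed cDNA, phi29 amplification and short single-end reads. Per the labels, the submitters' processing notes name CASAVA 1.4, FastQC, Bowtie2 2.3.1 and RSEM 1.2.25 and the build GRCh37 (hg19). The annotation and settings are not given in the sources used here. The authors deposited for each gene a read count in whole numbers, without normalisation, and a TPM value, which RSEM corrects for length and library total.

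TPM were rescaled to 1000000 per library, since the deposited columns summed to 934822 to 978521. The comparison scale was log2(TPM + 1). It took in 21162 genes that reached 1 TPM in some library, RNA5-8S5 being left out, with 95% Wilson intervals of each gene's share of the reads outside RNA5-8S5. The rescaled TPM total of 1000000 itself included RNA5-8S5. With 1 library per condition no spread between libraries could be estimated, and a call is a description. Samples were grouped by the labels.

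The members, lists and rules were chosen with earlier results of these data known. Named with values were chains with at least 10 TPM in a low-density library, the chains of types I to VI, chains called at low density, the 8 highest in HD, and, of the synthesis and receptor lists, genes called at low density and the 3 highest in LD. Other genes with values, among them COL7A1, COL17A1, COL18A1, GP6 and LAIR1, were chosen after their values were seen. Promoters came from RefSeq (GRCh38.p14), matched by symbol for 32 chains. Scripts used pandas 2.3.3, numpy 2.4.6, matplotlib 3.10.9 and scipy 1.17.1 in Python 3.11.15. Calls were tried on counts simulated from LD with large changes and counting error alone, which does not test the spread between libraries. Alternatives were another pseudocount, normalisation, unit, filter, fold and interval, and those of the synthesis and receptor lists were added after seeing the data.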

Additional observations from a re-analysis of the deposited data

How the results depend on the processing

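Every comparison rests on 1 library per condition, so these ranges show the dependence on settings and not the spread between cultures. Depth limits the 19 chains that stayed under 10 TPM at low density, the 15 without a read there, and nearly all of HD. The calls of COL1A2 in IL-8 held under all 11 alternatives, and those of COL5A1 in IL-6, COL6A2 in IL-8 and COL27A1 in RM under 10, being lost only when 2 log2 units were required. COL1A1 was called under 9 in IL-8 and 8 in RM, COL12A1 under 7, and COL4A5 and COL10A1 under 6. These tallies are not all tests: dropping the filter or the intervals could not end a call. The stricter TPM filters could only leave a gene out, without changing its values. For COL12A1, COL4A5 and COL10A1, being left out by them was counted as a lost call. Among the alternative values for counts, medians and shares, 148 stayed close to those reported, 65 moved and 5 reversed. The cause was not tested except where the setting itself removes genes.

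With a pseudocount of 5, the chains called were 1 higher in IL-6, 1 lower in IL-8, 0 lower in RM and 7 higher in HD. With median-ratio normalisation of the TPM, 1 was lower in IL-8 and 1 in RM. At 10 TPM or more in at least 1 library, at 1 TPM or more in all 5, and with the intervals set wider, 1 was higher in IL-6 and 1 lower each in IL-8 and RM, while 6, 0 and 7 in that order were higher in HD. At 2 log2 units, 0 were higher in IL-6, 1 higher and 0 lower in IL-8, 0 higher and 0 lower in RM, and 2 lower in HD. By the fold alone, 2 were lower in IL-6, 4 lower in IL-8, 4 lower in RM and 26 higher in HD.

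The median difference over the chains with 1 TPM in all 5 libraries was -0.31 in RM, 0.33 under IL-6, -0.19 under IL-8 and, reversed from the 1.56 above, -1.19 in HD. At 10 TPM in at least 1 library it was -0.34 in RM and 0.80 in HD. In HD it was 4.01 with a pseudocount of 0.1, 0.56 with 5, 1.204 under median-ratio normalisation, 1.72 without RNA5-8S5, 2.45 for reads scaled to 1000000 (CPM) and 1.34 with no filter.

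Above the highest olfactory receptor gene lay 9 chains in LD, 9 in RM, 0 in HD, 10 under IL-6 and 7 under IL-8. In HD 1 chain lay above their 99th percentile, and 17 above their 95th by RPM, without length. As a share of reads outside RNA5-8S5 the chains took 0.194% in LD, 0.203% in RM, 0.119% in HD, and 0.246% and 0.224% under IL-6 and IL-8. At 5 TPM 10 chains were detected in IL-6 and 19 in HD, and at 0.1 TPM 22 in IL-8. The synthesis and receptor lists were recomputed under 2 other scalings, a choice made after seeing the data, as were the medians over subsets of all genes and the family shares by reads. Under median-ratio normalisation 4 synthesis genes were higher in IL-8, and in RM 2 were higher and 4 lower, and no receptor was lower in RM (0), nor by CPM (0). The synthesis median became 0 in RM, 0.16 with IL-8 and -0.84 in HD (-1.13 by CPM). The receptor median turned from -0.11 to 0.33 in IL-8 (0.018 by CPM) and from -0.01 to 0.50 in RM (0.13 by CPM), and became -0.59 in HD (-0.73 by CPM). No paired analysis was possible because each condition has 1 library.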

Other observations

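Genes with collagen names outside the rule were nearly silent at low density. COL6A4P2, a pseudogene related to the type VI chains, had 3 reads in LD, 10 with IL-6, 2 with IL-8, 3 in RM and 33 in HD, where it reached 14.6 TPM. It resembles the type VI chains, and how the counting split reads that match several of them is not stated, so its values are uncertain. The antisense transcript COL4A2-AS1, which overlaps COL4A2, had 1 read in LD and in IL-8 and none in the other libraries, and the antisense transcripts COL18A1-AS1 and COL18A1-AS2 had 1 read each in HD alone. COLQ, the collagen-like tail of acetylcholinesterase, had 6 reads in HD and none elsewhere. The collagen-like lectins COLEC10, COLEC11 and COLEC12 had 1, 2 and 6 reads in HD, and at low density only COLEC12 had a read, in IL-8.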
